A study of Mus musculus with 6 samples.

Results

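Heterotrimeric G proteins couple cell surface receptors to enzymes and channels inside the cell, and RGS proteins (regulators of G protein signalling) shorten that signal. The genes of these families were taken from the deposited expression table by gene name: symbols that begin with Rgs or Gng and a digit, the G beta genes, and the G alpha genes of the Gs, Gi/o, Gq and G12 classes, with Rgs5 and Rgs9 left out. This gave 40 of the 13170 genes listed, made up of 12 G alpha, 4 G beta and 9 G gamma genes, 14 RGS genes and Rgs7bp, which encodes a membrane anchor of RGS proteins. They were compared between 3 libraries from mice of a high sexual motivation group and 3 libraries from mice of a low sexual motivation group, all of the C57 genotype and, by the title of the series, adult males. The series title places the study in the medial amygdala, the extraction protocol abbreviates the tissue as PrL, and the tissue label reads brain. How motivation was scored, and whether a library came from 1 animal or from a pool, the sources used here do not say, so the p-values measure the spread between these libraries, which may be technical in part.

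At rest, a G alpha subunit holds GDP and sits on a paired beta and gamma subunit. An activated receptor makes the alpha subunit exchange GDP for GTP, alpha and the beta-gamma pair then act on separate effectors, and hydrolysis of the GTP ends the signal. Gs-class subunits stimulate adenylyl cyclase, Gi/o-class subunits inhibit it, Gq-class subunits activate phospholipase C beta, and G12-class subunits act on the actin cytoskeleton through other effectors. RGS proteins speed the hydrolysis. In the brain these proteins carry the response to most neuropeptides, to dopamine, and to the slow actions of glutamate and GABA.

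The libraries contained neuronal RNA, and all markers of the lists below that the table holds were above 0 in every library. No gene listed there had a mean below 0.5 FPKM. Genes of lower expression may thus be missing from it, and values above 0 say little. The relative depth of the libraries, read from the most common ratio of low values between them, spanned 0.954 to 1.33, with high library 2 the deepest. That ratio was taken against high library 1, and in each other library only 28 to 37 of 1428 genes had it. High library 2 also held the extreme value of more genes than any other library, the lowest of 23.4% and the highest of 22.8% of all tested genes. The summed FPKM (fragments scaled by transcript length and by the mapped fragments of the library) of 10 choroid plexus markers was 41.5 to 111 across the high libraries, against 1340, 81.8 and 4174 in low libraries 1, 2 and 3. Ependymal markers summed to 11.8 to 13.8 FPKM over the high group and to 27.7, 20.6 and 40.5 in those low libraries. Of these 7 genes, 6 were separate (groups that do not overlap, as in 14.9% of all tested genes) and lower in the high group. Separate too were 4 of 8 oligodendrocyte markers, Mbp, Mog, Cnp and Mobp, all higher in the high group. So were 4 of 8 microglia markers, with C1qa, C1qb and C1qc higher and P2ry12 lower. A fit with the choroid plexus score as a covariate was run, and the part of the other cell types in the results was not tested. The medial amygdala list had 9 of 10 genes in the table (Cyp19a1 was not analysed here), 6 of them above the expression filter described below, with summed FPKM of 121 ± 6.72 for the high group and 110 ± 12.9 for the low group. Most of that sum was Npy, at 92.4 ± 7.48 FPKM for the high group and 82.2 ± 14.0 for the low group (mean ± SD, n = 3 libraries each, as for all means below). On that list Otp was separate and higher (2.74 ± 0.886 and 1.40 ± 0.251 FPKM), Esr1 was separate and lower (0.652 ± 0.185 and 1.06 ± 0.116 FPKM, under the filter), and the other 7, with Npy, had overlapping groups. Cortical excitatory markers were present too, with the glutamate transporter gene Slc17a7 at 191 ± 59.6 and 198 ± 30.2 FPKM. These are bulk profiles, in which fewer cells of a type and less RNA per cell cannot be told apart.

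The most abundant G protein transcripts were those of Gnb1 (133 ± 4.94 FPKM in the high group, 138 ± 6.69 for the low group) and Gng3 (132 ± 3.59 and 124 ± 4.33), the beta and gamma subunits that held the largest share of their families. Gnb1 made up 54.2% to 57.1% of the summed G beta FPKM across the high libraries and 55.7% to 57.7% across the low libraries. Gng3 made up 44.0% to 49.5% of the G gamma sum across the high libraries and 41.8% to 48.2% across the low libraries. Among the G alpha genes the order was led by Gnao1 and Gnai2, of the Gi/o class. The FPKM of Gnas may cover part of its locus only, so the place of Gnas in these orders is not known. Rgs4 led the RGS genes, with 30.9% to 35% of their sum across the high libraries and 31.0% to 33.6% across the low libraries. Mean FPKM was at least 10 for 26 of the 40 genes and below 5 for 6 of them. The lowest was Gng8, at 0.544 ± 0.178 and 0.505 ± 0.149 FPKM, the 1 gene that fell below the expression filter (a mean of at least 1 FPKM over the 6 libraries).

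Summed FPKM barely differed between the groups for any family. The G alpha genes summed to 364 ± 14 for the high group and 366 ± 11.3 for the low group, the G beta genes to 240 ± 13 and 243 ± 7.69, the G gamma genes to 285 ± 11.7 and 277 ± 10.3, and the RGS genes to 190 ± 8.97 and 186 ± 4.33. In each family the ranges of the groups overlapped. The ratio of the G alpha sum to the G beta sum was 1.52 ± 0.0882 for the high group and 1.51 ± 0.0605 for the low group. Both the G alpha sum and this ratio include Gnas as listed, which may cover part of its locus only.

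**Figure D1:**
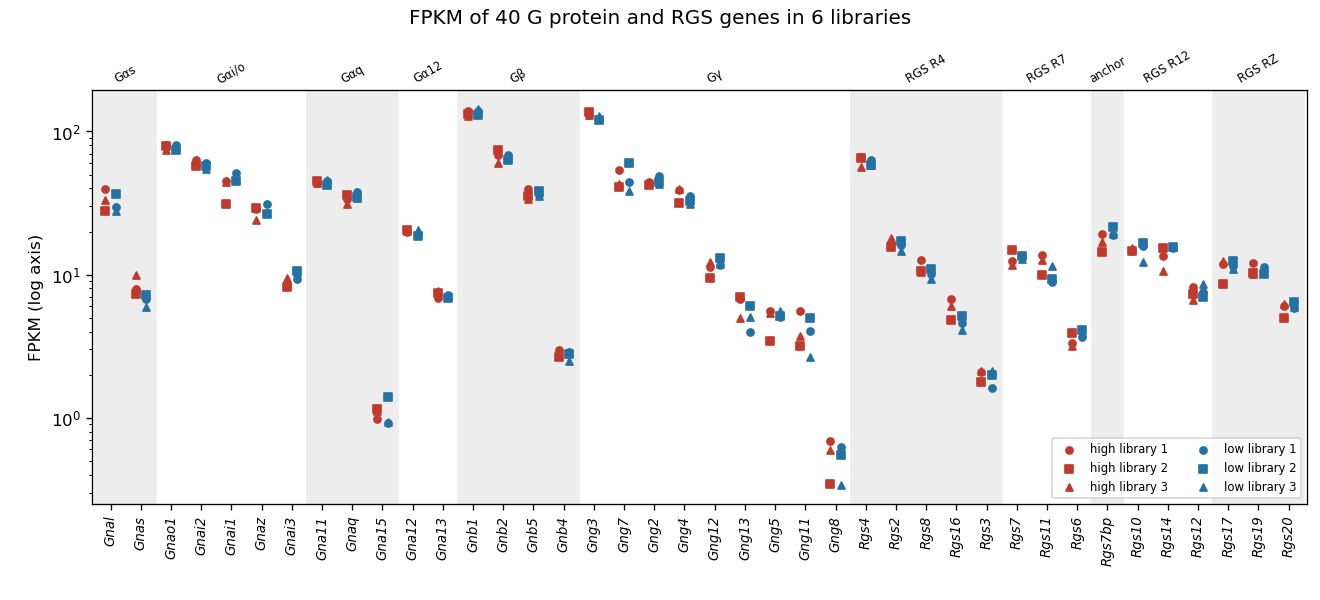
FPKM (log axis) of the 40 genes in each of the 6 libraries, ordered by class and then by mean level, with the high libraries in red left of the low libraries in blue and a marker shape for each library number. Gnb1 and Gng3 lie above 120 FPKM in every library, Gng8 lies below 0.7, and for most genes the red and blue points overlap.

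No gene of these families passed the test between the groups. limma was fitted to log2(FPKM + 1) over the 12026 genes that passed the filter, with p-values adjusted by the Benjamini-Hochberg method over all of them. At an adjusted p under 0.05 it called 0 of the 39 family genes tested, where 0% of all tested genes were called (0 of 12026). Log2 differences, taken as high minus low on log2(FPKM + 1), ran between −0.26 and 0.30, with 20 genes positive and 19 negative. Their median was 0.0002, and so was the median over all tested genes. The smallest adjusted p was 0.582. Unadjusted p-values fell under 0.05 for Gnas and Rgs16 (higher in the high group, as were 4.12% of all tested genes) and for Gnai3 (lower, as were 4.27%), which makes 3 genes (0 to 6 under the alternatives) against a share of 8.39% in either direction. The groups did not overlap in 3 genes, Gnas and Gng3 (higher in the high group, as in 7.33% of all tested genes) and Gnai1 (lower, as in 7.61%), against 14.9% in either direction. For 38 of the 39 genes the 95% interval of the difference lay inside ±0.58 on this log2 scale, a 1.5-fold change of FPKM + 1, as it did for 92.6% of all tested genes, and the exception was Gng13. In FPKM itself the bound is wider for genes of few FPKM.

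**Figure D2:**
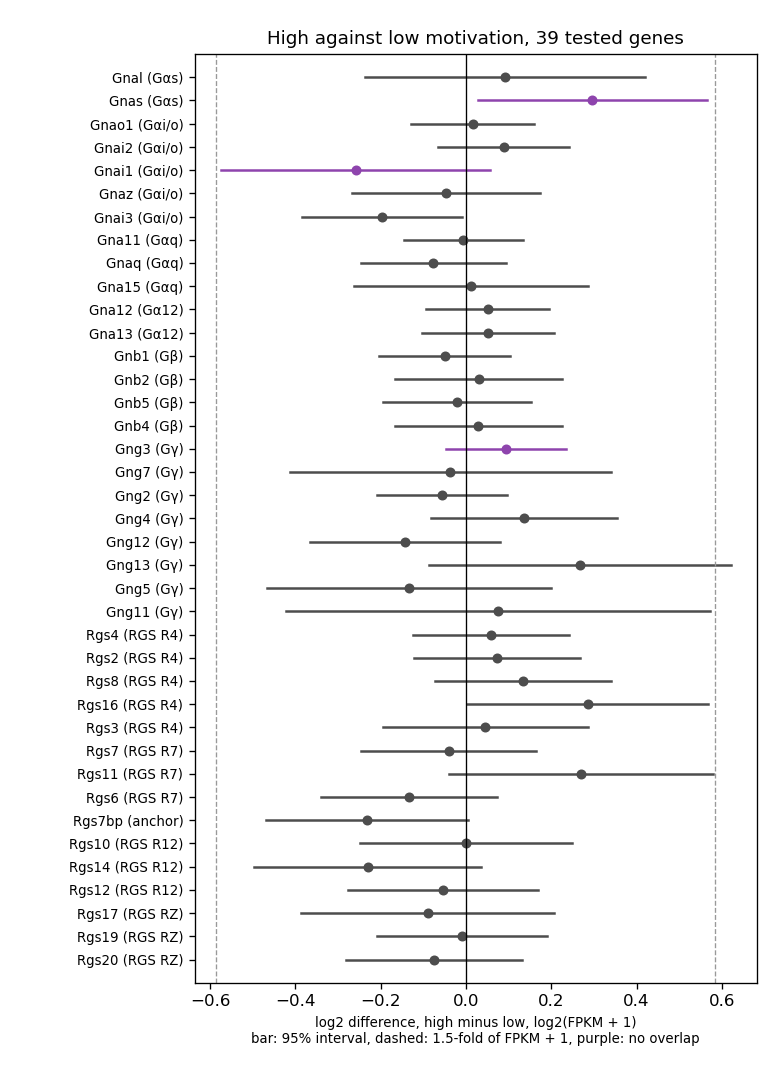
Log2 difference (high minus low, log2(FPKM + 1) scale) of the 39 tested genes, with points for the estimates, bars for 95% intervals, and dashed lines at a 1.5-fold change of FPKM + 1. The 3 genes in purple, Gnas, Gnai1 and Gng3, are those whose groups do not overlap, and the interval of Gng13 is the one that crosses a dashed line.

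Of the 2 Gs-class genes, Gnas, which encodes the widely expressed stimulatory subunit, had the largest positive difference of all 39. Its FPKM was 7.93, 7.30 and 9.99 in high libraries 1 to 3, against 6.72, 7.23 and 5.93 in low libraries 1 to 3. Every high value lay above every low value, but high library 2 and low library 2 were almost level, and high library 3 was the highest by a wide margin. The log2 difference was 0.30 (SE 0.116; limma adjusted p = 0.582), and it was 0.18 without high library 3 and 0.15 with a choroid plexus score as a covariate. When FPKM were rescaled without mitochondrial transcripts, or a trend on transcript GC content and length was taken out of each library, the groups overlapped. An exact 2-sided permutation test of its mean FPKM gave p = 0.1, the minimum for 3 against 3 libraries, as it did for Gng3 and Gnai1. Groups that do not overlap always give that minimum, so the test adds nothing to the separation.

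Gnas is an imprinted locus with several promoters, so its single FPKM may sum more than 1 kind of transcript. In GRCm38 it spans chromosome 2 from 174284320 to 174346744 on the plus strand, and 5 other annotated genes overlap it. RefSeq (GRCm38.p6) gives 4 promoter windows for it, each of 250 bases before a start site and 50 after. The first runs from 174284070 to 174284369 and the last, shown here because it is the most downstream start, is chr2:174329756-174330055 on the plus strand. The capitals mark GC boxes (GGGCGG, either strand), found in 35.7% of 32851 windows of this length, and the window has 81.7% G and C where the median window has 52.7%. The cAMP response element TGACGTCA is not among its letters, and 1.79% of all windows hold it. Its half-site (TGACG, either strand) has 1 match in the window, left in small letters, and 20.8% of all windows hold it.
Gnas: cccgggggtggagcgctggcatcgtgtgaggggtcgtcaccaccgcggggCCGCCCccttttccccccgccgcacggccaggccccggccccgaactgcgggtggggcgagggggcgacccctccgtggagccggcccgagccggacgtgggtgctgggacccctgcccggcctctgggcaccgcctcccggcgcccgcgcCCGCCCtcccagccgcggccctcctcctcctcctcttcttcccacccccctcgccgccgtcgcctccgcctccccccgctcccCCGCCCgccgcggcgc

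Gnal, the Golf subunit that takes the place of Gnas in the olfactory system and in striatal neurons, had higher FPKM in the table. Which Gnas transcripts that table covers is not stated, and it may hold part of the locus only, so the levels of the pair are not ranked. The FPKM of Gnal was 39.9, 27.6 and 33.3 across the high libraries, against 29.8, 36.5 and 27.8 across the low libraries. High library 1 and low library 2 were the highest of the 6, so the groups overlapped, and the log2 difference was 0.09 (SE 0.142; limma adjusted p = 0.861). Without high library 1 the sign turned, to −0.04. Gnal is on chromosome 18 from 67088216 to 67226792 and is overlapped by Chmp1b and Mppe1, which the table also lists.

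The Gi/o class had 5 genes, 2 with a positive and 3 with a negative difference (median −0.05). Gnai1, which encodes an inhibitory subunit, was at 44.8, 31.1 and 44.7 FPKM across the high libraries, against 51.6, 45.1 and 46.5 FPKM across the low libraries. The groups did not overlap, but high libraries 1 and 3 fell just short of low library 2, and high library 2 was far below the rest. The log2 difference was −0.26 (SE 0.137; limma adjusted p = 0.614). It was −0.09 without high library 2, and −0.15 after removal of the same GC and length trend, when the groups overlapped.

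The Gnai1 promoter window, shown as that of a gene with separate groups, is chr5:18360364-18360663 on the minus strand (RefSeq, GRCm38.p6). It holds 3 GC boxes, in capitals, and 80.0% G and C.
Gnai1: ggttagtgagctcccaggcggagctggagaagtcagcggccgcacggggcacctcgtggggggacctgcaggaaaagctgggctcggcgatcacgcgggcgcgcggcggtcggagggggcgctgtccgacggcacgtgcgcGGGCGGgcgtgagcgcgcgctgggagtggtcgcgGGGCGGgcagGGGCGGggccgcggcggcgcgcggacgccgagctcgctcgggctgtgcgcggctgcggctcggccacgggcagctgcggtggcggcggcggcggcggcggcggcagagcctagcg

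Gnai3, a further inhibitory subunit, was at 8.36, 8.15 and 9.49 FPKM across the high libraries, against 9.26, 10.5 and 10.4 FPKM across the low libraries. High library 3 lay above low library 1, and the other high libraries lay below all of the low group. Its log2 difference was −0.20 (SE 0.0814; limma adjusted p = 0.584), and −0.08 with the GC and length trend taken out. Gnai2, the third inhibitory subunit, pointed the other way, at 60.9 ± 3.16 and 57.2 ± 2.56 FPKM with overlapping values. Gnao1, the Go subunit that is abundant in neurons, had 80.7, 79.5 and 74.6 FPKM across the high libraries, against 80.4, 74.4 and 77.5 FPKM across the low libraries. Its groups spanned the same range, with a log2 difference of 0.02 (SE 0.0630; limma adjusted p = 0.954) whose sign turned under quantile normalisation (−0.0056). Gnaz, whose product hydrolyses GTP slowly, had 27.3 ± 2.81 and 28.2 ± 2.65 FPKM.

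The Gq and G12 classes were more even, with differences between −0.08 and 0.05. Gna11 had 43.4, 45.3 and 43.4 FPKM across the high libraries, against 45.1, 42.0 and 45.6 FPKM across the low libraries, a log2 difference of −0.0062 (SE 0.0602; limma adjusted p = 0.981). Gnaq, its close relative, stood at 33.7 ± 2.40 and 35.6 ± 1.97 FPKM. Gna15, a Gq-class gene known from blood cells, was close to the filter at 1.09 ± 0.0915 and 1.08 ± 0.269 FPKM. Gna12 had 19.9, 20.4 and 20.2 FPKM across the high libraries and 19.2, 18.5 and 20.6 FPKM across the low libraries (log2 difference 0.05, SE 0.0626; limma adjusted p = 0.826), with low library 3 above the whole high group. Gna13 had 7.34 ± 0.400 and 7.04 ± 0.164 FPKM.

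The 4 G beta genes had differences between −0.05 and 0.03, the narrowest range of the 3 subunit families. Gnb1 had 138, 132 and 128 FPKM across the high libraries, against 139, 131 and 144 FPKM across the low libraries, with overlapping groups (log2 difference −0.05, SE 0.0664; limma adjusted p = 0.837). Gnb2 had 67.8 ± 6.93 and 66.2 ± 3.06 FPKM, and Gnb4 had 2.79 ± 0.170 and 2.72 ± 0.215. Gnb5, the divergent beta subunit that pairs with RGS proteins of the R7 subfamily in place of a gamma subunit, had 36.1 ± 3.01 and 36.6 ± 1.72 FPKM.

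Among the 8 tested G gamma genes, 4 differences were positive and 4 were negative (median 0.02). Gng3, a gamma subunit of neurons, was at 131, 136 and 129 FPKM across the high libraries, against 123, 120 and 129 FPKM across the low libraries. The groups did not overlap, by a margin of under 1 FPKM between high library 3 and low library 3. The log2 difference was small, 0.09 (SE 0.0613; limma adjusted p = 0.679), and it was 0.03 under quantile normalisation. Gng3 also had the smallest spread within groups of the 39 genes, with a coefficient of variation of 3.10% where the median over all tested genes was 8.82%.

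Gng3 lies on chromosome 19 from 8836933 to 8839194 on the minus strand and overlaps Bscl2, the gene of the lipid droplet protein seipin, on the opposite strand. The libraries were made with a strand-marking protocol, but the sources used here do not say whether counting used the strand, so the overlap may count for either gene. Bscl2 was at 17.15, 17.9 and 17.5 FPKM across the high libraries, against 15.99, 15.3 and 17.14 FPKM across the low libraries. Its libraries were thus ordered much like those of Gng3, with low library 2 lowest and high library 2 highest in both genes. The groups of Bscl2 did not overlap either, with high library 1 barely above low library 3 (separate and higher, as in 7.33% of all tested genes). Its log2 difference was 0.11 (SE 0.0640; limma adjusted p = 0.643). The promoter window of Gng3, chr19:8839197-8839496 on the minus strand (RefSeq, GRCm38.p6), shares 181 bases with 1 of the 3 RefSeq windows of Bscl2, and is shown for that reason. It has 55.7% G and C, and neither a GC box, nor a TATA box (TATAAA, either strand, in 13.6% of all windows), nor TGACGTCA is among its letters, so none of it is in capitals.
Gng3: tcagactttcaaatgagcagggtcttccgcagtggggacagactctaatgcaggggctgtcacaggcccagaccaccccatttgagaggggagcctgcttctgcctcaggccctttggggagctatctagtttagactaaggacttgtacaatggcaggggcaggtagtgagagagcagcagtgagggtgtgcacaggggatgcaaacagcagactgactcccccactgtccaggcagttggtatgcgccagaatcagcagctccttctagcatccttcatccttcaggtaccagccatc

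**Figure D3:**
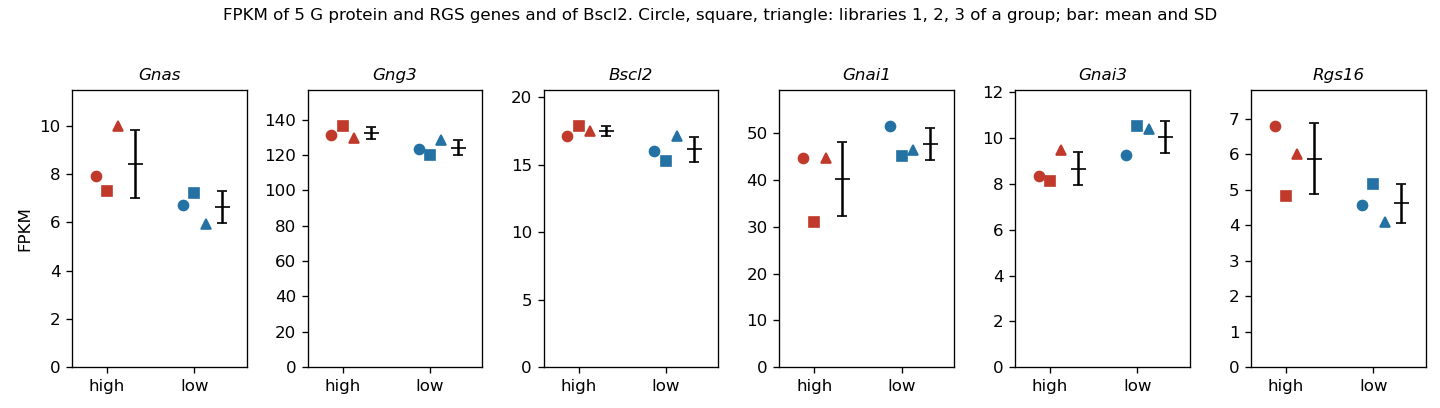
FPKM of Gnas, Gng3, Bscl2, Gnai1, Gnai3 and Rgs16 in each library, high group in red left of the low group in blue, with the mean and SD of each group in black. Gnas, Gng3 and, by a very small margin, Bscl2 have every high library above every low library, and Gnai1 has every high library below. Single libraries carry much of the distance in Gnas (high library 3) and Gnai1 (high library 2).

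The other gamma genes overlapped between the groups. Gng7, the gamma subunit that works with Gnal and Adcy5 in the striatum, had 53.7, 41.2 and 43.1 FPKM across the high libraries, against 44.5, 60.1 and 38.5 FPKM across the low libraries. High library 1 and low library 2 were again the highest. Gng2 had 43.5 ± 0.971 and 45.4 ± 3.01 FPKM, Gng4 had 36.7 ± 4.31 and 33.2 ± 2.05, and Gng12 had 10.99 ± 1.42 and 12.2 ± 0.745. Gng13, which overlaps Chtf18 on the opposite strand, had 6.22 ± 1.12 and 5.01 ± 1.03 FPKM, and Gng5 had 4.80 ± 1.16 and 5.27 ± 0.266. Gng11 had 4.15 ± 1.26 and 3.90 ± 1.19 FPKM, and its coefficient of variation within groups, 30.5%, was the highest of the tested family genes.

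The RGS genes of the R4 subfamily encode, for the most part but not in every case, small proteins made mostly of the RGS domain. All had positive differences, 5 of 5, between 0.05 and 0.29, and 0 passed. Where 50.1% of all tested genes had a positive difference, this count covers 5 genes measured in the same 6 libraries and was given no test. Rgs16 was at 6.80, 4.81 and 6.01 FPKM across the high libraries, against 4.59, 5.18 and 4.08 FPKM across the low libraries. High library 2 lay below low library 2, so the groups overlapped. Its log2 difference was 0.29 (SE 0.122; limma adjusted p = 0.593), 0.40 without high library 2, and 0.13 with the choroid plexus score as a covariate. Rgs4, an inhibitor of Gi/o and Gq signalling that is abundant in forebrain neurons, had 66.0, 65.8 and 56.3 FPKM across the high libraries, against 63.5, 58.3 and 58.3 FPKM across the low libraries. High library 3 was the lowest of the 6, and the log2 difference was 0.06 (SE 0.0796; limma adjusted p = 0.842). Rgs2, a Gq inhibitor whose transcript is induced by neuronal activity, had 16.8 ± 1.32 and 15.9 ± 1.35 FPKM. Rgs8 had 11.2 ± 1.18 and 10.1 ± 0.767, and Rgs3 had 1.99 ± 0.188 and 1.91 ± 0.275.

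The R7 subfamily proteins are bound to Gnb5 and tethered to the membrane by Rgs7bp. Rgs7 had 12.4, 14.8 and 11.7 FPKM across the high libraries, against 13.5, 13.4 and 12.9 FPKM across the low libraries, with the low values inside the range of the high values (log2 difference −0.04, SE 0.0890; limma adjusted p = 0.903). Rgs6 had 3.46 ± 0.405 and 3.88 ± 0.204 FPKM, and Rgs11 had 12.1 ± 2.04 and 9.87 ± 1.45. Rgs7bp had 19.2, 14.5 and 16.9 FPKM across the high libraries, against 19.0, 21.4 and 19.2 FPKM across the low libraries. High library 1 lay within the range of the low group and the other high libraries lay below it. The log2 difference of Rgs7bp was −0.23 (SE 0.103; limma adjusted p = 0.596), −0.13 without high library 2 and −0.12 with the GC and length trend taken out.

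The R12 and RZ subfamilies had no gene with separate groups. Rgs10, an R12 gene known from microglia as well as neurons, had 14.5, 14.5 and 15.4 FPKM across the high libraries, against 15.95, 16.6 and 12.2 FPKM across the low libraries, and a log2 difference of 0.00022 (SE 0.108; limma adjusted p = 1.00). Rgs14, known from hippocampal neurons of area CA2, had 13.4, 15.4 and 10.7 FPKM across the high libraries, against 15.3, 15.5 and 15.5 FPKM across the low libraries. The low libraries were almost identical and high library 3 lay well below. That library also had the lowest summed FPKM of 9 cortical excitatory markers, 196. The sum was 258 and 342 in high libraries 1 and 2 and 240 to 308 over the low group. Most of it in each library was Slc17a7, which was also lowest in high library 3, at 138 FPKM. Fezf2 and Rorb were not lowest in high library 3, and the other genes of the list were. The part of this in the Rgs14 values was not tested. Rgs12 had 7.39 ± 0.737 and 7.71 ± 0.848 FPKM. In the RZ subfamily, Rgs17 had 11.8, 8.53 and 12.5 FPKM across the high libraries, against 11.5, 12.4 and 10.9 FPKM across the low libraries, with high library 2 alone at the bottom (log2 difference −0.09, SE 0.129; limma adjusted p = 0.848; 0.06 without high library 2). Rgs19 had 10.8 ± 1.12 and 10.9 ± 0.708 FPKM, and Rgs20 had 5.76 ± 0.662 and 6.10 ± 0.328.

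**Figure D4:**
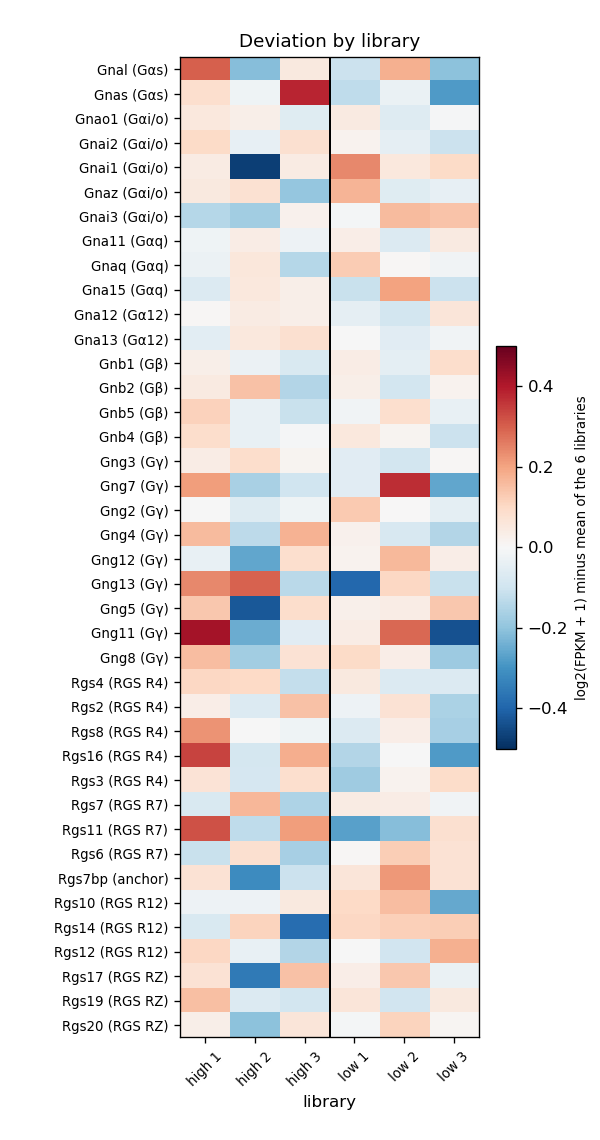
Deviation of each of the 40 genes from its own mean over the 6 libraries, on the log2(FPKM + 1) scale, with the high libraries left of the black line and the low libraries right of it. Gnai1 and Gng5 are deepest blue in high library 2, Gnas is red in high library 3, and Gnal, Gng7 and Gng11 are red in high library 1 and low library 2.

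The median size of the log2 difference over the 39 genes was 0.0749 and their median SE 0.0899, and part of the variation between libraries ran across the groups. Of the 40 genes, 11 had their lowest value in low library 3, 10 in high library 3, 9 in high library 2 and 0 in high library 1, where the shares of all tested genes were 14.6%, 18.6%, 23.4% and 12.7%. High library 1 held the highest value of 12 of the 40, against 16% of all tested genes. In 6 of the 39 tested genes, 15.4%, the highest pair of libraries was high library 1 and low library 2, against 4.47% of all tested genes. They were Gnal, Gng7, Gnb5, Gng11, Rgs8 and Rgs7bp, a set noticed after their values were seen and given no test. The same libraries were the highest pair for 5 of the 8 striatal markers used (a list shortened by 1 gene with values known), but not for Ppp1r1b, Pde10a and Rasd2. Among the 5 were the dopamine receptor gene Drd2 (11.4, 2.13 and 5.67 FPKM across the high libraries and 3.70, 7.79 and 2.37 across the low libraries) and the adenosine receptor gene Adora2a (14.6, 1.203 and 5.62 FPKM and 4.27, 15.0 and 1.82 FPKM). The summed FPKM of the 8 markers was 343, 156 and 247 across the high libraries and 188, 282 and 143 across the low libraries. The largest part of that sum was Penk, at 207, 88.4 and 163 FPKM across the high libraries and 111, 174 and 62.1 across the low libraries. Meningeal markers summed to 71.1, 13.2 and 35.3 FPKM across the high libraries and 9.85, 21.3 and 13.3 across the low libraries. Endothelial and mural markers summed to 129, 76.3 and 88.3 FPKM and to 63.2, 77.1 and 73.5 FPKM. In both lists high library 1 was highest and low library 2 led the low group, but high library 3 came second. The part of any of these cells in the values of the 6 genes was not tested. Adcy5, the adenylyl cyclase of striatal neurons and no member of the families, had 58.2, 46.0 and 49.0 FPKM across the high libraries and 46.7, 52.7 and 43.5 FPKM across the low libraries, and so had the same highest pair.

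**Figure D5:**
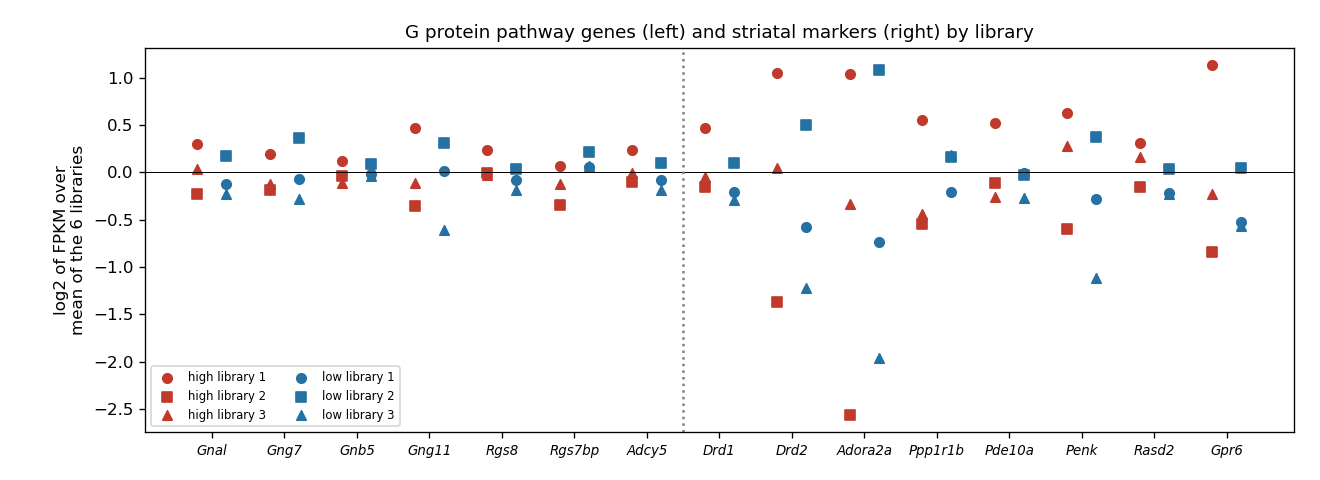
Log2 of the FPKM of a library over the mean of the 6 libraries for the 6 family genes with high library 1 and low library 2 as their highest pair, chosen for that, and Adcy5 (left of the dotted line), and for all 8 striatal markers used (right), high libraries in red left of the low libraries in blue. High library 1 (red circle) and low library 2 (blue square) are the highest pair for 5 of the 8 markers and not for Ppp1r1b, Pde10a and Rasd2, and the range is widest for Adora2a.

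The partners of G proteins were examined through a list of 38 tested genes, of which 0 passed, 21 had a positive and 17 a negative difference (median 0.03), and 9 had separate groups (14.9% of all tested genes), 7 higher and 2 lower in the high group (7.33% and 7.61% of all tested genes). Of 9 adenylyl cyclase genes, 6 had a positive difference (50.1% of all tested genes) and 3 had separate groups, all higher (7.33% of all tested genes). Adcy3 had 11.2, 11.2 and 10.1 FPKM across the high libraries, against 9.65, 8.88 and 9.67 FPKM across the low libraries (log2 difference 0.19, SE 0.0706; limma adjusted p = 0.582). Adcy2 had 27.8 ± 2.11 and 24.3 ± 1.38 FPKM, with a log2 difference of 0.18 and the same adjusted p by limma, and neither cyclase passed. The receptor kinases and arrestins, which switch receptors off, had 5 of 6 positive and 3 separate and higher, against the same 50.1% and 7.33%. Arrb1, the gene of beta-arrestin, had 42.6, 40.4 and 43.5 FPKM across the high libraries, against 38.0, 39.2 and 36.6 FPKM across the low libraries (log2 difference 0.15, SE 0.0602; limma adjusted p = 0.582), and its relative Arrb2 had 27.4 ± 2.15 and 24.8 ± 0.735 FPKM.

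The G protein-gated potassium channels, opened by beta-gamma subunits, had 3 of 3 negative differences, where 6001 of 12026 tested genes had one. This count covers 3 genes measured in the same 6 libraries and was given no test. Kcnj3 was at 13.3, 10.8 and 13.3 FPKM across the high libraries, against 14.3, 14.8 and 13.8 FPKM across the low libraries, with separate groups and high library 2 far below (log2 difference −0.19, SE 0.0881; limma adjusted p = 0.599). The difference of Kcnj3 was −0.10 without high library 2 and likewise with the GC and length trend taken out. Kcnj9 had 39.6 ± 6.56 and 43.0 ± 0.487 FPKM, with overlapping groups. Of 3 tested phospholipase C beta genes 2 were positive, with Plcb4 at 3.76 ± 0.568 and 3.23 ± 0.0925 FPKM and Plcb3 at 6.60 ± 0.727 and 6.41 ± 0.365.

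Among 11 chaperones and receptor-independent regulators, 6 differences were positive and 5 were negative. Rasd1, a glucocorticoid-inducible small GTPase that acts on Gi signalling, had the lowest adjusted p of the 38 genes. Its FPKM was 3.48, 3.89 and 2.65 across the high libraries, against 4.80, 5.11 and 4.15 across the low libraries, with every high value below every low value. The log2 difference was −0.40 (SE 0.122; limma adjusted p = 0.553), and it did not pass. Rasd2, its striatal relative and 1 of the 8 striatal markers, had 34.2 ± 5.37 and 28.8 ± 3.05 FPKM, again with high library 1 highest. Over the 11924 tested genes with a known transcript GC content, the log2 difference between the groups followed it with a Spearman correlation of 0.379 across genes, which are not independent replicates. With that trend and the one on length taken out, the log2 difference was 0.20 for Adcy2 and 0.17 for Adcy3, close to the values above, and 0.09 for Arrb1 and 0.10 for Arrb2, which is smaller.

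In the authors' deposited table, 0 of the 40 genes had an unadjusted p under 0.05, where 975 of the 13170 genes had one. The smallest p of the 40 was that of Gng3, with a log2 fold change of 0.09 in the authors' deposited table. The authors' deposited table gives Gnas a log2 fold change of 0.34 and Rgs16 one of 0.35.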

How the data were processed

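Poly(A) RNA was sequenced from 6 libraries, 3 of a high and 3 of a low sexual motivation group of C57 mice. Per the labels' protocols, second strands were marked with dUTP and removed. Expression was deposited as FPKM, by the name of the table, with 1 column per library. fastp, HISAT2, StringTie and GRCm38 are named without roles or versions, per the submitters' processing notes. The authors also deposited a log2 fold change and a p-value, which equal log2 of the ratio of group means and an unadjusted equal-variance test on FPKM in all 13170 entries, found by recomputing them (tolerances 1e-04 and 1e-06).

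Absolute depth is unknown from FPKM, to which a count model does not apply. Genes with a mean of at least 1 FPKM were fitted as log2(FPKM + 1) with limma 3.58.1 (R 4.3.3; trend of variance on mean, 2-sided, Benjamini-Hochberg at 0.05, Python 3.11.15 for the rest). The procedure was tried on simulated data with added changes larger than any difference of the family genes. Its power for differences of their size was not tested. Positions are from GENCODE M21 (GRCm38), and promoters from RefSeq, which matched 32 of the 40 genes. Of these genes, 29 overlap another annotated gene. Values in every library, differences and errors are given for genes with separate groups and for the most abundant gene of each class; Gnai3 and Rgs16 were added after their values were seen, as were the sets of values in every library for Gng7, Rgs14, Bscl2, Adcy5, Drd2 and Adora2a. Of each sublist of partners, the 2 genes with the smallest p are named, except for 1 sublist that is not reported here. A striatal marker was left out of its list after the values were seen and is not reported here. The families, lists and tests were chosen with earlier results of these data known. Alternatives were other pseudocounts, filters, scalings and variance models, the replicate number as a block, removal of a GC and length trend (splines with 5 degrees of freedom), a choroid plexus covariate and libraries left out.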

Additional observations from a re-analysis of the deposited data

How the results depend on the processing

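Under all 21 alternatives, limma called 0 family genes, 0 genes of the partner list and 0 of all tested genes, and the lowest adjusted p of any of the 27 genes followed through them was 0.19. Of these 27, 19 kept their direction throughout. The number of family genes with separate groups was 3, and 2 to 4 under the other scalings, filters and the GC and length trend. It was 5 to 11 with single libraries left out (11 without high library 2) and 20 without low libraries 1 and 3, where fewer libraries separate more easily, with 22.1% to 28.5% and 50.7% of all tested genes. Quantile normalisation added Gnb1, rescaling without mitochondrial genes gave Rgs14 in place of Gnas, and the GC and length trend left Gng3 and added Rgs14. Of the 3, Gng3 alone was separate under each of these.

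Whether the replicate numbers pair the libraries is not stated. The deviations of same-numbered libraries from their group means correlated at −0.0939, −0.206 and −0.156, and 0 of 6 libraries correlated best with their own number. So few correlations, of values centred within each group, cannot decide whether the libraries were paired. With the replicate block, 0 family genes were called and 1 had an unadjusted p under 0.05, against 3 without it. That number was also 1 with the GC and length trend removed, the choroid plexus covariate, no variance trend or rescaling without mitochondrial genes, 0 without low libraries 1 and 3, and 1 (without low library 1 or 3) to 6 (without high library 2) over single leave-outs.

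The signs of small differences turned, and the cause was not tested. With the GC and length trend removed, with or without the replicate block, Gnao1 had −0.00302, Rgs10 −0.028, Rgs17 0.0711, Rgs7 0.000973 and Plcb3 −0.00995. With the choroid plexus covariate, Gna11 had 0.0591, Gnal −0.124, Gnb1 0.0257 and Rgs10 −0.212, and without low libraries 1 and 3 Gna11 had 0.0656, Gnal −0.13, Gnb1 0.0247, Rgs10 −0.155 and Plcb3 −0.000469. Rgs10 also had −0.0379 with array weights and −0.0076 when rescaled without mitochondrial genes, and Gnao1 had −0.0056 under quantile normalisation. Over single leave-outs the lowest and highest values were −0.0421 and 0.0155 for Gna11, −0.0363 and 0.22 for Gnal, −0.0129 and 0.049 for Gnao1, −0.041 and 0.0937 for Plcb3, −0.128 and 0.078 for Rgs10, −0.186 and 0.0644 for Rgs17 and −0.134 and 0.0262 for Rgs7.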
